A study of Homo sapiens with 6 samples.

Results

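The 37 RNAs encoded by mitochondrial DNA were followed in DBTRG, an established human glioblastoma cell line of wild-type genotype, kept for 5 days in 2D culture on a rigid dish or in 3D culture in soft gel. They were taken as every row of the deposited table of 58884 genes whose symbol begins with MT-, and comprised 13 mRNAs, 2 rRNAs and 22 tRNAs. Each culture had 3 libraries, called rigid dish 1 to 3 and soft gel 1 to 3 here after their labels, and no drug or engineered allele was named in the labels. The labels do not say whether the libraries came from separate cultures, so p-values measure only how far these libraries spread, and that spread may be technical.

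Human mitochondrial DNA is a small circle whose genes are read from both strands as long transcripts. Excision of the tRNAs that lie between the other genes releases most of the mRNAs and both rRNAs. All of the mRNAs encode core subunits of the respiratory chain or of ATP synthase, which nuclear genes complete. The heavy-strand transcript holds both rRNAs and all mRNAs except MT-ND6, which comes from the light-strand transcript. POLRMT, the mitochondrial RNA polymerase, and TFAM, which packages the DNA and opens its promoters, are both encoded in the nucleus.

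Some of these genes share bases with a neighbour or have a near-identical copy in the nucleus, which bears on how reads can be counted. Sequences were read from GENCODE release 29 transcripts on the GRCh38 build and are written 5′ to 3′. The first 3 windows show where neighbouring mRNA genes overlap, with the shared bases in capitals. MT-ATP8 and MT-ATP6 (chrM:8517-8582, plus strand) share 46 bases, MT-ND4L and MT-ND4 (chrM:10740-10786, plus strand) share 7, and MT-ATP6 and MT-CO3 (chrM:9177-9237, plus strand) share 1.
MT-ATP8/MT-ATP6: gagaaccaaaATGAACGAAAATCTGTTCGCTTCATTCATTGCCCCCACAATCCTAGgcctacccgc
MT-ND4L/MT-ND4: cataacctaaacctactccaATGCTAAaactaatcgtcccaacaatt
MT-ATP6/MT-CO3: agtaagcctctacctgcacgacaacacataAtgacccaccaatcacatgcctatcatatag
The next pair compares MT-ATP6 (chrM:8642-8701, plus strand) with its nuclear pseudogene MTATP6P1 over the 60 bases in which they differ most, with the 3 differing bases in capitals.
MT-ATP6: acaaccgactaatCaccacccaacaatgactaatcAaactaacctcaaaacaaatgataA
MTATP6P1: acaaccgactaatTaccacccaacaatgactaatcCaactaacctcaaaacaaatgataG
The last are the only tRNA genes with enough counts to test, MT-TC (chrM:5761-5826, minus strand), the tRNA for cysteine, and MT-TS1 (chrM:7446-7514, minus strand), a tRNA for serine, with the anticodon in capitals.
MT-TC: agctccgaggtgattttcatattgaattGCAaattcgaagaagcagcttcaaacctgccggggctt
MT-TS1: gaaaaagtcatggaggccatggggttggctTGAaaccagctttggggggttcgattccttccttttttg

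The libraries held 20911340 to 25901465 counts, so 3 counts, the limit that a count of 0 allows, came to 0.116 to 0.143 CPM (counts in proportion to library size) in a library. VIM, CD44, NES and SOX2, expressed in glioma lines, were at 59.8 CPM or more in every library, while GFAP was at most 1.58 CPM and OLIG2 at 0. Among markers of other cells, PTPRC, AIF1, PECAM1, VWF, CDH5, RBFOX3, MOG, EPCAM and CDH1 were at 0.576 CPM or less in every library. SYT1 at 0.861 to 2.59 CPM, SNAP25 at 5.40 to 11.9 and MBP at 99.8 to 124 were present in both cultures with overlapping groups. Other markers separated the groups. CD68, a lysosomal protein used as a macrophage marker, was at 10.04 to 14.9 CPM on the rigid dish and at 38.4 to 45.5 CPM in soft gel. KRT18, an epithelial keratin, was at 215 to 318 CPM against 114 to 132 CPM, and S100B, a glial protein, at 0.299 to 1.08 CPM against 1.10 to 1.44 CPM. VIM and NES were higher in each rigid dish library than in any soft gel library, and CD44 and SOX2 lower, as were AIF1 and PECAM1 at their low levels. The part of these markers in the results was not tested. In RNA from bulk cultures, fewer cells of a type and less RNA per cell cannot be told apart. Rigid dish 1 stood apart within its group, with the lowest level of 9 of the 13 mRNAs and the highest of MT-ND4L and MT-ND5. The count of called mRNAs was 12 both with and without it.

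Mitochondrial mRNA took a larger share of the counts in every soft gel library than in any rigid dish library. It made up 3.77%, 4.43% and 4.24% of counts in rigid dish 1, 2 and 3, and 7.04%, 8.14% and 7.57% in soft gel 1, 2 and 3. The group means were 4.15% ± 0.340 and 7.58% ± 0.551 (SD, n = 3 each). All of the MT- rows together went from 4.88% ± 0.296 to 8.66% ± 0.769 of counts. Complex I mRNAs went from 1.46% ± 0.0173 to 3.00% ± 0.303 of counts, complex III from 0.162% ± 0.0137 to 0.345% ± 0.0240, complex IV from 2.36% ± 0.295 to 3.91% ± 0.228, and ATP synthase from 0.163% ± 0.0194 to 0.329% ± 0.00924.

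**Figure D1:**
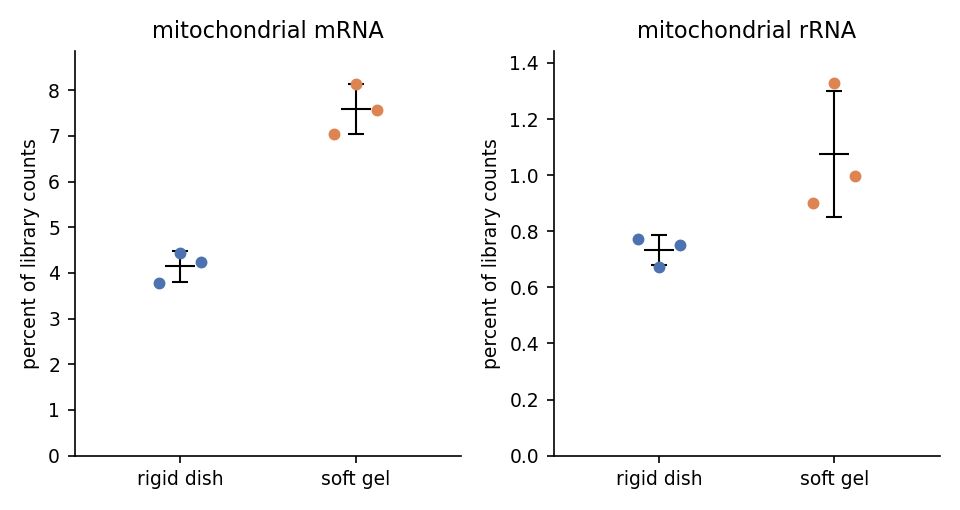
Percent of each library's counts in the 13 mitochondrial mRNAs (left) and the 2 mitochondrial rRNAs (right), with 1 point per library and black bars for the mean ± SD of 3. The mRNA share was 3.77% to 4.43% on the rigid dish and 7.04% to 8.14% in soft gel, and the rRNA share 0.672% to 0.773% and 0.901% to 1.33%.

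Of the 13 mRNAs, 12 rose in soft gel and none fell, at a Benjamini-Hochberg adjusted p below 0.05 in edgeR's quasi-likelihood test over all 16098 tested genes. In that test 15.4% of all tested genes rose and 13.2% fell. The log2 fold changes of the 13 ran from 0.34 to 1.12 with a median of 0.91, against a median of 0.05 over all tested genes, and 2 of the 13 (MT-ND2 and MT-CYB) rose at least 2-fold. In CPM, 12 of the 13 had all soft gel libraries above all rigid dish libraries, as did 23.5% of all tested genes. Leaving out rigid dish 2 left 10 called, rigid dish 3 left 11, soft gel 2 left 9 and soft gel 3 left 10.

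A second signal moved with the groups. The 405 olfactory receptor genes, most of them silent outside the nose, summed to 11.7, 9.91 and 8.38 CPM in rigid dish 1, 2 and 3 and to 17.8, 21.96 and 15.9 CPM in soft gel 1, 2 and 3. Their part in the mitochondrial result was not tested.

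All 7 complex I mRNAs rose, by 0.67 to 1.12 on the log2 scale. MT-ND2, a subunit of the proton-pumping membrane arm, was at 2234, 3185 and 3026 CPM in the rigid dish libraries and at 5248, 6640.4 and 6437 CPM in soft gel. Every soft gel library lay above every rigid dish library, and the log2 fold change was 1.12 (SE 0.159, adjusted p = 0.00209), the highest of the 13 mRNAs. MT-ND6, a membrane subunit and the only mRNA of the light-strand transcript, was at 1379, 1233 and 1389 CPM on the rigid dish and at 2318, 2749 and 2790.4 CPM in soft gel. The groups did not overlap, and its rise of 0.97 (SE 0.118, adjusted p = 0.00112) lay within the range of the heavy-strand mRNAs. The labels do not say whether counting used strand, so the MT-ND6 row may hold reads of the opposite transcript.

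MT-ND4, another membrane-arm subunit, varied little on the rigid dish, at 4489, 4624 and 4747 CPM, and stood at 8465, 9997 and 8342 CPM in soft gel. Its log2 fold change was 0.95 (SE 0.114, adjusted p = 0.00112). MT-ND4L, the small subunit read from the same mRNA as MT-ND4, was at 523, 408 and 461 CPM and at 697, 1123 and 799 CPM. It rose by 0.91 (SE 0.180, adjusted p = 0.00737), and soft gel 2 was well above the other soft gel libraries. The count of MT-ND4L over that of MT-ND4 was 0.117, 0.0883 and 0.0971 on the rigid dish against 0.0824, 0.112 and 0.0958 in soft gel, so the groups overlapped in this ratio.

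MT-ND5, a subunit at the far end of the membrane arm, was at 2864, 2586 and 2733 CPM on the rigid dish and at 4499, 5515 and 5407 CPM in soft gel, a log2 fold change of 0.91 (SE 0.119, adjusted p = 0.00143). MT-ND1, which joins the membrane arm to the peripheral arm, was at 2024, 2665 and 2728 CPM and at 3969, 5143 and 4835 CPM, a log2 fold change of 0.91 (SE 0.152, adjusted p = 0.00379). In both genes soft gel 1 was the lowest of the soft gel libraries and still above every rigid dish library. MT-ND3, a small membrane subunit, was at 449.6, 620.1 and 679.7 CPM and at 724, 1032 and 1029 CPM. It had the smallest rise of complex I, 0.67 (SE 0.186, adjusted p = 0.0267), and soft gel 1 was only slightly above rigid dish 3. It no longer passed with rigid dish 2 left out (adjusted p = 0.0721), nor without soft gel 2 (0.110), without soft gel 3 (0.0800) or on log2(TPM + 1) values (0.0558).

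MT-CYB, cytochrome b and the only mitochondrially encoded subunit of complex III, rose 2.02-fold. It was at 1429, 1817 and 1764 CPM on the rigid dish and at 3309, 3633 and 3169 CPM in soft gel. The groups were far apart, with a log2 fold change of 1.01 (SE 0.127, adjusted p = 0.00124).

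Complex IV, cytochrome c oxidase, has 3 mitochondrially encoded subunits, and their changes were unequal. MT-CO2, which carries the copper center that accepts electrons from cytochrome c, was at 3779, 4542 and 4394 CPM on the rigid dish and at 7262, 8165 and 7604 CPM in soft gel. It rose by 0.86 (SE 0.117, adjusted p = 0.00169) with no overlap. MT-CO1, the catalytic subunit, was at 13282, 18701 and 18214 CPM and at 24675, 27884 and 26048 CPM. It rose by 0.65 (SE 0.147, adjusted p = 0.0129), with rigid dish 1 far below the other rigid dish libraries, and it did not pass once soft gel 2 was left out (adjusted p = 0.0586).

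MT-CO3, a structural subunit next to the catalytic core, was the only mRNA that did not pass the test. It was at 2646, 3827 and 3752 CPM on the rigid dish and at 3765, 4589 and 4628 CPM in soft gel. Soft gel 1 lay below rigid dish 2, so the groups overlapped in CPM. In the deposited TPM they did not, at 7212, 9411 and 8507 TPM against 10368, 11964 and 11626 TPM. By limma it still did not pass on log2(TPM + 1) values (adjusted p = 0.0939) or on log2(TPM + 0.1) values (0.0704). The log2 fold change was 0.34 (SE 0.160, adjusted p = 0.132), and 0.18 (adjusted p = 0.215) without rigid dish 1. It passed in 1 alternative, the fit with the replicate number as a block (0.36, adjusted p = 0.0189).

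Both mitochondrially encoded ATP synthase subunits passed the test, MT-ATP8 less firmly. MT-ATP6, the subunit that forms the proton channel with the rotating ring, was at 1393, 1857 and 1569.8 CPM on the rigid dish and at 3084, 3183 and 3016 CPM in soft gel. It rose by 0.95 (SE 0.127, adjusted p = 0.00161), and its soft gel values were close together. MT-ATP8, a short membrane subunit read from the same mRNA, was at 73.5, 74.3 and 69.3 CPM and at 75.3, 143 and 139 CPM. Soft gel 1 was barely above the rigid dish libraries, and the rise of 0.72 (SE 0.216, adjusted p = 0.0349) did not pass with soft gel 2 (adjusted p = 0.145), soft gel 3 (0.108), rigid dish 2 (0.0989) or rigid dish 3 (0.109) left out. Nor did it pass in limma-voom (0.0569) or on log2(TPM + 1) values (0.0585).

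**Figure D2:**
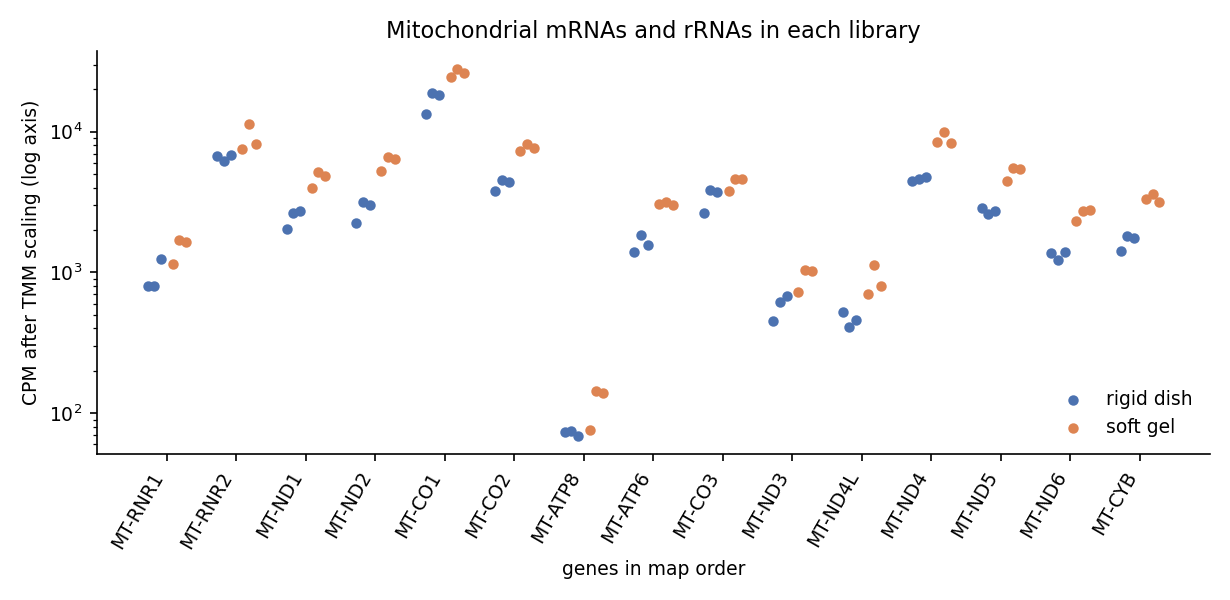
CPM after TMM scaling (log axis) of the 13 mRNAs and 2 rRNAs in map order, with 1 point per library, blue for rigid dish and orange for soft gel. MT-CO1 is the highest and MT-ATP8 the lowest, and the groups overlap for MT-CO3 and MT-RNR1.

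**Figure D3:**
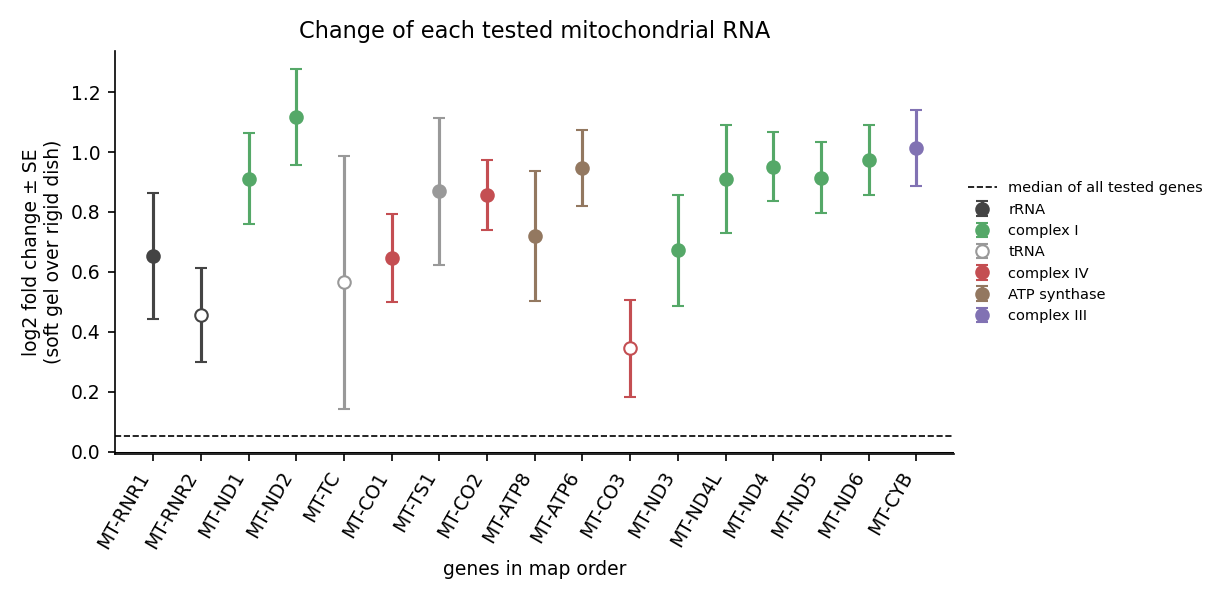
Log2 fold change of soft gel over rigid dish with its SE for the 17 tested mitochondrial RNAs in map order, coloured by complex or RNA class. Filled points have an adjusted p below 0.05, and the dashed line is the median of all tested genes (0.05). MT-ND2 is highest at 1.12 and MT-CO3 lowest at 0.34.

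Per kilobase of gene length, MT-CO1 and MT-CO2 had the highest levels in both cultures, at 10851 ± 1944 and 6197 ± 592 CPM per kb on the rigid dish and 16992 ± 1044 and 11224 ± 667 CPM per kb in soft gel. MT-CO3 ranked 3 on the rigid dish at 4347 ± 844 CPM per kb and 6 in soft gel at 5519.7 ± 621 CPM per kb. MT-ND4 (3353 ± 93.5 to 6484 ± 669 CPM per kb) and MT-ND2 (2701 ± 489 to 5862 ± 722 CPM per kb) had lower means than MT-CO3 on the rigid dish and higher ones in soft gel. MT-CO3, MT-RNR2, MT-ND4 and MT-ND2 were within 1 SD of a neighbour in this order in 1 culture or both, so their ranks are not firm. Levels of MT-ATP8, MT-ND4L and MT-ND3, the shortest mRNA rows, depend on how fragments are assigned to rows of 207 to 346 bases.

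Of the 2 rRNAs, MT-RNR1 passed the test and MT-RNR2 did not. MT-RNR1, the small-subunit rRNA of the mitochondrial ribosome, was at 798, 804 and 1255 CPM on the rigid dish and at 1145, 1706 and 1642 CPM in soft gel. Soft gel 1 lay below rigid dish 3, and the log2 fold change was 0.65 (SE 0.210, adjusted p = 0.0449). The call did not hold with soft gel 2 (adjusted p = 0.164), soft gel 3 (0.124), rigid dish 1 (0.0695) or rigid dish 2 (0.154) left out, nor with DESeq2 size factors (0.0548) or scaling on nuclear genes (0.0515).

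MT-RNR2, the large-subunit rRNA, was at 6698, 6193 and 6815 CPM on the rigid dish and at 7563, 11315 and 8153 CPM in soft gel. The groups did not overlap, but soft gel 2 was far above the other soft gel libraries and the change of 0.46 (SE 0.157, adjusted p = 0.0553) did not pass. It passed without rigid dish 1 (adjusted p = 0.0466), with upper quartile factors (0.0409), with no low-count filter (0.0315), in DESeq2 (0.0397) and with the replicate block (0.0264). The rRNA count over the mRNA count was 0.205, 0.152 and 0.177 on the rigid dish against 0.128, 0.163 and 0.132 in soft gel. The lowest rigid dish value lay below the highest soft gel value, so this ratio overlapped between the groups, with means of 0.178 ± 0.0267 and 0.141 ± 0.0193. The labels name a total RNA input and a TruSeq RNA kit without saying how cytosolic or mitochondrial rRNA was handled, so these rows describe what remained in the libraries.

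The tRNAs were barely measured. Of the 22, 13 had a count of 0 in all libraries, 9 had any counts, and 2 passed the low-count filter. The 20 that did not pass had at most 15.9 counts each over all libraries. Counts were split by strand: 7 of the 8 tRNA genes of the light-strand transcript had counts, 906.06 in all, against 2 of the 14 of the heavy-strand transcript, with 4 in all. The labels do not say whether counting used strand, and without strand, reads from a tRNA and from the opposite transcript cannot be told apart.

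MT-TS1, which lies directly after MT-CO1 on the opposite strand, was at 3.67, 2.11 and 2.96 CPM on the rigid dish and at 5.97, 5.24 and 4.79 CPM in soft gel. The groups did not overlap, and it rose by 0.87 (SE 0.246, adjusted p = 0.0288), a call that ended when soft gel 1 (adjusted p = 0.113), soft gel 2 (0.0882), rigid dish 2 (0.106) or rigid dish 3 (0.0799) was left out. MT-TC was at 0.823, 2.41 and 1.84 CPM and at 1.52, 3.04 and 2.91 CPM, with overlapping groups and a log2 fold change of 0.57 (SE 0.422, adjusted p = 0.333). All tRNA rows together held 107 to 124 counts per rigid dish library and 169 to 207 per soft gel library.

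The makeup of the mitochondrial mRNA was examined after the rise of the whole was seen, by scaling each library to its mitochondrial mRNA count. Scaled this way the median of all tested genes moved to -0.75, and 59.4% of them were called lower and 2.21% higher (61.7% in either direction). With so many calls the adjustment over all tested genes was lenient, and adjustment over the mitochondrial mRNAs alone was not done. The raw p-values in edgeR's test were 0.00398 for MT-CO3, 0.0196 for MT-ND2 and 0.0306 for MT-RNR2. Under that lenient adjustment MT-CO3 was called lower and MT-ND2 higher relative to the total, and the other 11 mRNAs did not pass. Whether either call would hold among the mitochondrial mRNAs alone was not tested. MT-CO3 made up 7.24%, 8.30% and 8.24% of mitochondrial mRNA counts in the rigid dish libraries and 5.53%, 5.75% and 6.23% in soft gel. The groups did not overlap, and the relative change was -0.44 (SE 0.126, adjusted p = 0.00845). It was called on leaving out each library in turn, at -0.50 to -0.40 (adjusted p = 0.00287 to 0.0416), and on TPM values (-0.45, adjusted p = 0.0433).

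MT-ND2 made up 6.11%, 6.90% and 6.65% of mitochondrial mRNA counts on the rigid dish against 7.71%, 8.32% and 8.67% in soft gel. Its relative change was 0.33 (SE 0.124, adjusted p = 0.0336), and it did not pass when rigid dish 1 (adjusted p = 0.0827), rigid dish 2 (0.0561), rigid dish 3 (0.0727) or soft gel 3 (0.121) was left out, nor on TPM values (0.125). MT-CO1 went from 36.3%, 40.5% and 40.0% to 36.2%, 34.9% and 35.1%, which just separated the groups without passing the test (relative change -0.14, SE 0.109, adjusted p = 0.290). MT-CYB went from 3.91%, 3.94% and 3.87% to 4.86%, 4.55% and 4.27% (relative change 0.22, SE 0.125, adjusted p = 0.137). MT-RNR2, on the same scale, changed by -0.36 (SE 0.1504, adjusted p = 0.0497), a call that ended when soft gel 1 (0.148), soft gel 3 (0.149) or rigid dish 1 (0.172) was left out, on TPM values (0.117) and with nuclear copies pooled (0.0509).

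**Figure D4:**
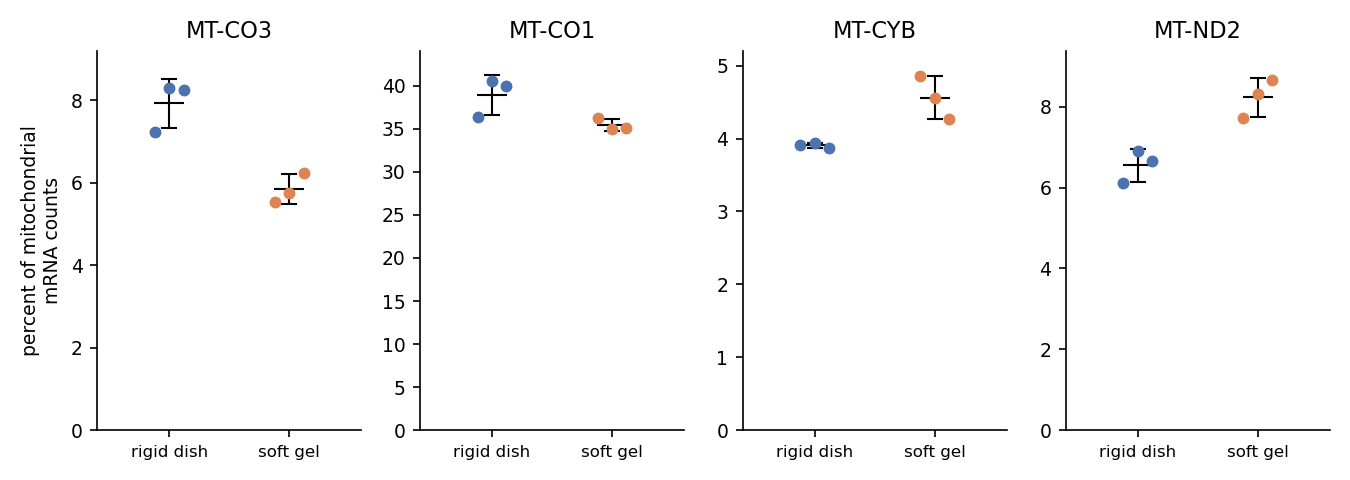
Percent of mitochondrial mRNA counts in MT-CO3, MT-CO1, MT-CYB and MT-ND2, with 1 point per library and black bars for the mean ± SD of 3 (each panel has its own vertical axis, starting at 0). The panels show the mRNAs whose groups do not overlap in this share, and the groups overlap for every other mRNA. The share of all genes with separate groups on this scale was not counted. MT-CO1 and MT-CYB did not pass the test. MT-CO3 goes from 7.92% ± 0.597 on the rigid dish to 5.84% ± 0.360 in soft gel.

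MT-CO3 was also set against single other mRNAs, chosen after its relative fall was seen, so these ratios restate that fall. Its count over that of MT-ATP6, the gene that precedes it and shares a base with it, was 1.90, 2.06 and 2.39 on the rigid dish against 1.22, 1.44 and 1.53 in soft gel. Counting the nuclear copy MTATP6P1 together with MT-ATP6 gave 1.66, 1.88 and 2.15 against 1.10, 1.29 and 1.37. The groups stayed apart either way. MT-CO3 over MT-CO1 was 0.199, 0.205 and 0.206 against 0.153, 0.165 and 0.178, and MT-CO3 over MT-CO2 was 0.700, 0.843 and 0.854 against 0.518, 0.562 and 0.609. In all of these ratios each soft gel library was below each rigid dish library.

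The light-strand mRNA was compared with those of the other strand. If counting did not use strand, which the labels leave unsaid, its row cannot be told apart from reads of the opposite transcript. MT-ND6 over the summed heavy-strand mRNAs was 0.0392, 0.0275 and 0.0315 on the rigid dish against 0.0352, 0.0357 and 0.0391 in soft gel. The means were 0.0327 ± 0.00596 and 0.0367 ± 0.00208, and an exact two-sided permutation test gave p = 0.4, where 3 against 3 libraries allow no p below 0.1. MT-ND6 lies directly after MT-ND5 on the opposite strand, and its count over that of MT-ND5 was 0.481, 0.477 and 0.508 against 0.515, 0.499 and 0.516.

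Nuclear copies of mitochondrial genes, old insertions of mitochondrial DNA annotated as pseudogenes, could take or give reads. The table held 407 such copies, 61 had counts and 7 were tested. Of the 7, 2 rose (MTATP6P1 and MTND4P12), or 1 to 3 on leaving out 1 library, where 15.4% of all tested genes rose. MTND4P12, with 77.3 counts in all, was called in 8 of 14 alternatives, and its call ended without rigid dish 1, rigid dish 3, soft gel 1 or soft gel 2. MTATP6P1, which differs from MT-ATP6 at 10 of 681 bases, held 9.72% to 14.7% as many counts as MT-ATP6 and rose by 0.92 (SE 0.113, adjusted p = 0.00118), close to the 0.95 of MT-ATP6. MTCO1P12, 98.6% identical to MT-CO1, held 1.52% to 2.45% as many counts as MT-CO1 and changed by 0.42 (SE 0.161, adjusted p = 0.0765). Reads of these pairs cannot be assigned with certainty. Among the 4 copies whose counts were set against those of their genes, MTATP6P1 held the largest share. MTCO3P12, 98.2% identical to MT-CO3 over 547 bases, had a count of 0 in every library. With all copies pooled into their genes, 12 mRNAs were called. MT-CO3 was still called lower relative to the mitochondrial mRNA total, under the same lenient adjustment over all tested genes (-0.44, adjusted p = 0.00860).

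Of 79 tested nuclear subunits of complexes I to IV and ATP synthase, 8 rose and 1 fell, where 15.4% of all tested genes rose and 13.2% fell, and their median log2 fold change was 0.03. By complex, 3 of 37 rose and 1 fell in complex I, 1 of 4 rose in complex II, which has no mitochondrially encoded subunit, 2 of 9 in complex III and 2 of 11 in complex IV, and 0 of 18 nuclear ATP synthase genes were called. COX7B, a small complex IV subunit, was at 104, 115 and 117 CPM on the rigid dish and at 182, 209.6 and 194 CPM in soft gel (log2 fold change 0.81, SE 0.108, adjusted p = 0.00162). NDUFA5, a peripheral-arm subunit of complex I, went from 47.8 ± 6.61 to 89.6 ± 19.7 CPM (0.90, adjusted p = 0.00731). It was called in 12 of 14 alternatives, but not on the TPM scales. NDUFS6, a complex I accessory subunit, went from 130.1 ± 18.4 to 93.5 ± 10.003 CPM (-0.48, adjusted p = 0.0298). UQCRB and UQCRC2 of complex III rose by 0.57 (called in 11 of 14 alternatives) and 0.47 (12 of 14). The UQCRB call ended when soft gel 1, soft gel 2 or rigid dish 2 was left out, and that of UQCRC2 when this was done with soft gel 2 or rigid dish 3. NDUFA1 of complex I rose by 0.44 (adjusted p = 0.0432, called in 6 of 14), SDHD, a membrane anchor of complex II, by 0.36 (adjusted p = 0.0300, 7 of 14) and COX7C of complex IV by 0.33 (adjusted p = 0.0491, 5 of 14). NDUFA1 and COX7C lost the call whichever library was left out, and SDHD lost it without any library except rigid dish 1. The NDUFS6 call ended without rigid dish 2, rigid dish 3, soft gel 1 or soft gel 2. Of the libraries, leaving out soft gel 2 gave 2 risen, soft gel 1, rigid dish 2 or rigid dish 3 gave 3, soft gel 3 gave 4 and rigid dish 1 gave 6, and DESeq2 size factors gave 5. Leaving out rigid dish 1 gave 9 fallen, soft gel 3 gave 4, and each of the others gave 0.

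Proteins of the mitochondrial ribosome, which translates only the mitochondrial mRNAs, had a median change below 0. Of 77 tested, 30 fell and 3 rose, with a median of -0.36, while 13.2% of all tested genes fell and 15.4% rose. MRPL11, of the large subunit, went from 66.5 ± 10.7 to 34.0 ± 4.51 CPM (log2 fold change -0.97, adjusted p = 0.00328) and MRPL58, a large-subunit protein that also releases stalled chains, from 34.4 ± 4.55 to 18.3 ± 1.82 CPM (-0.91, adjusted p = 0.00322). MRPS25 and MRPS6, of the small subunit, rose by 0.66 and 0.65. With rigid dish 2 left out 6 fell, with rigid dish 3 left out 20, with soft gel 1 or soft gel 2 left out 7 each, and with rigid dish 1 or soft gel 3 left out 43 and 38. MRPL11, MRPL58, MRPS25 and MRPS6 were called in all 14 alternatives tried for the nuclear lists.

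Of 17 nuclear genes for mitochondrial DNA transcription and maintenance, 2 rose and 3 fell, with a median of -0.02, beside the 15.4% and 13.2% of all tested genes. Leaving out 1 library gave 1 to 3 risen (3 without rigid dish 1, 1 without each of the others) and 2 to 6 fallen (6 without rigid dish 1 or soft gel 3), and DESeq2 size factors gave 1 and 5. POLRMT was at 67.1, 79.9 and 94.5 CPM on the rigid dish and at 61.1, 50.01 and 65.5 CPM in soft gel, which separated the groups without passing the test (log2 fold change -0.45, SE 0.155, adjusted p = 0.0554, called in 6 of 14 alternatives). TFAM was at 47.3, 45.4 and 33.4 CPM and at 40.1, 42.7 and 31.4 CPM, with overlapping groups (-0.14, SE 0.169, adjusted p = 0.543, called in 0 of 14, with the direction turned in 2 of them). MTERF2, of the transcription terminator family, went from 8.82 ± 1.08 to 18.2 ± 3.998 CPM (1.04, adjusted p = 0.0058). TFB1M, which methylates the small rRNA, went from 26.2 ± 1.59 to 15.8 ± 0.630 CPM (-0.73, adjusted p = 0.00426). It was called in 12 of 14 alternatives, but not on the TPM scales. TEFM, the elongation factor, rose by 0.56 (called in 5 of 14 alternatives), and RNASEH1, which removes RNA from RNA-DNA hybrids, fell by 0.52 on the log2 scale (12 of 14).

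Genes that process, stabilise and degrade mitochondrial RNA had medians of -0.00 and 0.08. Of 22 for processing and modification, 0 rose and 3 fell by edgeR's test, among them GTPBP3, which modifies tRNA (-0.53, called in 12 of 14 alternatives), and MRM2, which methylates the large rRNA (-0.41, 9 of 14). Over all tested genes 13.2% fell. Without rigid dish 2 or soft gel 2 none of the 22 fell, without soft gel 1 it was 1, and without rigid dish 1 or soft gel 3 it was 5. Of 16 for stability and decay, 1 rose and 2 fell (15.4% and 13.2% of all tested genes). FASTKD1, of a family of mitochondrial RNA-binding proteins, went from 16.1 ± 0.404 to 29.8 ± 5.56 CPM (log2 fold change 0.89, adjusted p = 0.00499, called in 14 of 14). SLIRP, which binds mitochondrial mRNA together with LRPPRC, changed by -0.43 (7 of 14) and TBRG4 by -0.40 (8 of 14), and both calls were lost without rigid dish 2, rigid dish 3, soft gel 1 or soft gel 2.

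Of 12 regulators of mitochondrial biogenesis, 2 rose and 3 fell, where 15.4% and 13.2% of all tested genes did. PPARGC1A, the coactivator PGC-1 alpha, was at 28.7, 34.7 and 29.8 CPM on the rigid dish and at 64.8, 72.5 and 53.96 CPM in soft gel. The groups were far apart, with a log2 fold change of 1.04 (SE 0.142, adjusted p = 0.00175, called in 14 of 14 alternatives). ESRRG, a nuclear receptor partnered by this coactivator, went from 3.89 ± 0.507 to 9.26 ± 2.91 CPM (1.25, adjusted p = 0.0092). It was called in 12 of 14 alternatives, but not on the TPM scales. MYC, a growth transcription factor, went from 80.2 ± 15.0 to 38.1 ± 7.17 CPM (-1.07, adjusted p = 0.00385), and TFE3, a regulator of lysosomal and mitochondrial genes, changed by -0.58 (8 of 14). Leaving out rigid dish 2, rigid dish 3, soft gel 1 or soft gel 2 left 1 fallen, and without rigid dish 1 the risen numbered 4.

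**Figure D5:**
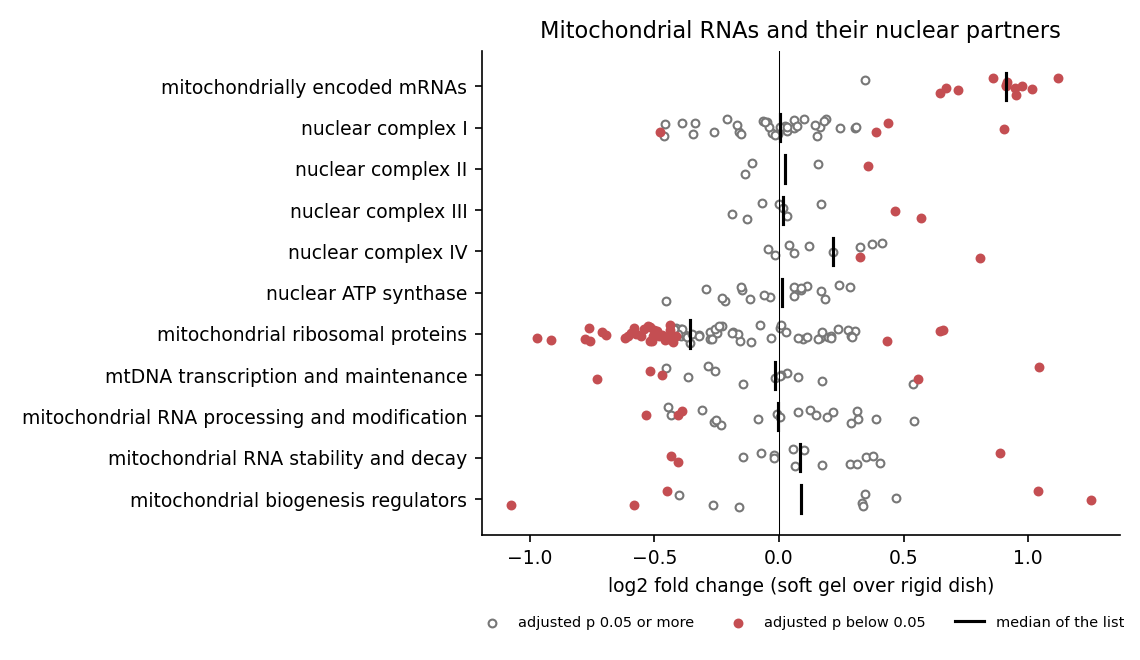
Log2 fold change of soft gel over rigid dish for each tested gene of the mitochondrial mRNAs and of 10 nuclear lists, with red points for an adjusted p below 0.05 and a black bar for each list's median. The mitochondrial mRNAs have a median of 0.91, the mitochondrial ribosomal proteins -0.36, and the nuclear complexes medians from 0.01 to 0.22.

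The authors' deposited table gave folds of 1.21 to 2.02 for the 13 mRNAs. By the authors' deposited table, 12 of the 13 had an adjusted p below 0.05, and MT-CO3 had a fold of 1.21 and an adjusted p of 0.200. For MT-RNR2 the authors' deposited table gave a fold of 1.30 and an adjusted p of 0.0474.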

How the data were processed

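RNA of 6 DBTRG libraries, 3 per culture, was compared. Per the labels' protocols, TRIzol was used to extract total RNA and a TruSeq RNA kit to make libraries. HISAT2, HTSeq and the hg38 build are named in the submitters' processing notes, with neither versions nor roles, and the tool that made the counts is not stated there. Values deposited by the authors were estimated counts per gene (decimals in 11.3% to 13.0% of genes per library) and TPM. The authors' deposited comparison holds, per gene, p-values with and without adjustment, the log2 fold change and the linear fold (ratio). Identifiers of 58611 of the 58884 genes were in GENCODE release 29.

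Estimated counts were rounded, filtered with filterByExpr (minimum count 10), scaled by TMM and tested with edgeR 4.0.16 (quasi-likelihood, R 4.3.3, limma 3.58.1), with Benjamini-Hochberg adjustment over all tested genes. CPM values are after TMM scaling except the floors, which use library totals without it. SEs come from the test statistic, and floors cover counting error only. The same script was tested on simulated data. No other scaling of the counts moved the median of all tested genes by more than 0.1 except scaling to mitochondrial mRNA. Sequence identities used Biopython 1.88, permutations scipy 1.17.1, and figures matplotlib 3.10.9.

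The members, gene lists and tests were chosen with earlier results of these data known. All MT- rows are accounted for, with values for the mRNAs, the rRNAs and each tested tRNA. POLRMT, TFAM and PPARGC1A were always named, and of each other list up to 2 risen and 2 fallen genes with the largest change at 5 CPM or more. Genes that are named outside this rule (MTATP6P1, MTCO1P12, MTCO3P12 and cell markers) were chosen for their sequence or as markers. MTND4P12, HSPH1 and CLPP were named after their values were seen. Alternatives were other filters and size factors, scaling on nuclear genes, limma on log2(TPM + 1) and log2(TPM + 0.1), limma-voom, DESeq2 1.42.0, a replicate block and leaving out each library. Scaling to mitochondrial mRNA and pooling nuclear copies were added after seeing the data. A marker on the list of cell types is not reported here.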

Additional observations from a re-analysis of the deposited data

How the results depend on the processing

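Over 287 refits of 17 mitochondrial RNAs, 0 reversed direction, 21 lost a call and 6 gained one, and 9 RNAs were called in every refit (MT-ND1, MT-ND2, MT-ND4, MT-ND4L, MT-ND5, MT-ND6, MT-CYB, MT-CO2 and MT-ATP6). MT-TC gave no value on the TPM scales. The 12 risen mRNAs ranged from 9 to 13 over all alternatives (9 to 12 on leaving out 1 library). The 2 risen tRNAs and rRNAs became 1 with DESeq2 size factors and 1 with nuclear-gene scaling, and 0 to 2 on leaving out 1 library. MT-RNR2 was called in addition to these 2 with upper quartile factors, with no low-count filter, in DESeq2 and with the replicate block. Calls over all genes went from 4603 to 2318 on log2(TPM + 1), 2282 on log2(TPM + 0.1) and 1803 to 6164 on leaving out 1 library (2026 without rigid dish 2, 1963 without soft gel 1, 1803 without soft gel 2). Calls in the nuclear partner lists went from 63 to 41 and 40 on the TPM scales and 20 to 96 on leaving out 1 library. The mRNA share rose by 3.44 percentage points of counts (3.16 to 3.71 on leaving out 1 library) and by 8.57 points of TPM. The difference in rRNA over mRNA ran from -0.0501 to -0.0235 and that in MT-ND6 over heavy-strand mRNA from 0.00133 to 0.0072 on leaving out 1 library. Deviations from the group means correlated at 0.312, 0.0236 and 0.457 in same-numbered libraries and at -0.393 to 0.222 in differently numbered ones. Not every library correlated best with its own number. The labels state no pairing, so the replicate block was kept as an alternative only. With the replicate block, calls were 13 for the mRNAs, 103 for the nuclear partner lists and 6442 over all genes. The cause of these changes was not tested.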

Other observations

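The deposited TPM values of these RNAs rest on lengths that differ by row. The ratio of count to TPM fell on 1 line in gene length for 8 rows (MT-CYB, MT-ATP6, MT-CO2, MT-CO3, MT-ND1, MT-ND2, MT-RNR1 and MT-RNR2), as if 239 bases had been taken off each length in rigid dish 1 and 262 to 280 in the other libraries. MT-ATP8, 207 bases long, had an implied length of 7.04 to 14.4 bases, so its TPM of 7577 to 20147 stood beside 69.3 to 143 CPM. MT-ND4, 1378 bases long, had an implied length of 566 to 685, and MT-ND6, 525 bases long, one of 503 to 572. TPM levels should therefore not be set against each other between these rows.

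Of 17 tested genes of the mitochondrial stress response, 2 rose and 3 fell, where 15.4% and 13.2% of all tested genes did. Leaving out 1 library gave 1 to 3 risen (3 without rigid dish 1, 1 without soft gel 2) and 1 to 7 fallen (7 without rigid dish 1, 3 without soft gel 3, 1 without each of the others). SPG7, a subunit of an inner-membrane protease, went from 52.9 ± 8.64 to 87.9 ± 3.63 CPM (log2 fold change 0.73, edgeR adjusted p = 0.00536), and OMA1, a stress-activated inner-membrane protease, from 5.42 ± 0.976 to 9.97 ± 1.28 CPM (0.88, adjusted p = 0.0122). ATF4, the transcription factor of the integrated stress response, was at 296, 714 and 811 CPM on the rigid dish and 259, 285 and 338 CPM in soft gel. TRIB3, one of its targets, was at 33.5, 369 and 414 CPM and at 45.2, 65.3 and 82.02 CPM, so that rigid dish 1 lay near the soft gel libraries in both genes. Their calls (adjusted p = 0.0335 and 0.0498) held in 7 and 4 of 14 alternatives. CLPP, also a mitochondrial protease, changed by -0.79 (edgeR adjusted p = 0.00724) and was called in 14 of 14.

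Of 11 tested genes that respond to handling of cells, 5 rose and 2 fell, where 15.4% and 13.2% of all tested genes did. Leaving out 1 library gave 3 to 5 risen (3 without rigid dish 2 or soft gel 1) and 1 to 3 fallen (1 without soft gel 2). FOS was at 1.16, 1.77 and 2.06 CPM on the rigid dish and at 132, 75.3 and 107 CPM in soft gel (5.99, adjusted p = 1.38e-05), and FOSB rose by 6.02 (adjusted p = 1.48e-05). HSPB1 and DNAJB1, a small heat shock protein and a chaperone partner, changed by -0.96 and -0.66, and the DNAJB1 call ended without soft gel 2. HSPH1, another heat shock protein, went the other way, by 0.99 (edgeR adjusted p = 0.0178, called in 8 of 14 alternatives). The part of these genes in the mitochondrial results was not tested.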
